A study of Schmidtea mediterranea with 24 samples.

Results

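The 150 transcripts described here are those whose level was lower after *yki(RNAi)* than after *control(RNAi)* in intact planarians and in tails collected 6, 12 or 24 hours after they were cut (hours post amputation, hpa). They were chosen from 82478 rows of a count table whose label is only a SmedASXL transcript number, out of 82669 transcripts in all. Levels were CPM, the reads of a transcript scaled to a common library size, and 13156 rows reached a median of at least 5 CPM in at least 1 group. For each of these rows the *yki(RNAi)* median of log2(CPM + 0.5) was subtracted from the *control(RNAi)* median in each of the 4 states, and the 150 rows with the largest value of the smallest of the 4 differences became the members. Because these values chose the members, every *yki(RNAi)* against *control(RNAi)* value below is a description without a test. The response to amputation within each RNAi condition and the spread between libraries were not part of that choice, although the same libraries were. Differences between medians of 3 libraries can still favour rows that vary between libraries. A row could however reach the level minimum in tails alone or in intact animals alone, which favoured a change between them in such rows. The counts of members called below include such rows.

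Yorkie (Yki) is the transcriptional co-activator at the end of the Hippo pathway, the planarian counterpart of vertebrate YAP and TAZ. In flies and mammals a kinase cascade phosphorylates it and keeps it out of the nucleus, and when that cascade is silent it works with TEAD-family DNA-binding proteins to raise the transcription of growth and survival genes. Planarians replace lost parts from a stem cell pool, and amputation also sets off an early transcriptional wound response in the tissue that remains.

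All animals were the asexual clonal strain CIW4 of *Schmidtea mediterranea*, were kept in high-salt medium, were fed double-stranded RNA 3 times and received 60 Gy of radiation 24 hours before amputation. The *control(RNAi)* and *yki(RNAi)* animals therefore shared the radiation and the medium, and differed in the RNA fed, which was gfp in the controls. Each library held poly(A) RNA of more than 8 intact animals or of 15 tail fragments, with 3 libraries (replicates A, B and C) in each of the 8 groups. Tails and intact animals differ in body region, in injury and in time since radiation, which cannot be told apart here. In these bulk samples fewer cells of a type and less RNA per cell cannot be told apart either.

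Libraries held 11021767 to 23601139 counted reads. The transcript of *yki* itself lay between 78.1 and 119 CPM in the 12 *control(RNAi)* libraries and between 12.4 and 19.8 CPM in the 12 *yki(RNAi)* libraries. Among named rows, *cintillo*, a marker of sensory neurons of the head, had a median of 0 CPM in all 6 groups of tails and of at least 0.0904 CPM in intact animals. The summed level of 7 stem cell markers ranged over 409 to 552 CPM in *control(RNAi)* and 436 to 652 CPM in *yki(RNAi)*, and that of 19 epidermal lineage markers was 1497 to 3627 and 1408 to 3380 CPM. The stem cell sum was higher after *yki(RNAi)* in tails, at 526 to 552 against 578 to 600 CPM at 6 hpa. At 12 hpa it was 469 to 489 against 535 to 563 CPM, and at 24 hpa 409 to 431 against 436 to 461 CPM. Most of this sum came from *piwi-2* and *piwi-3*. At 24 hpa *piwi-1*, *PCNA* and *mcm2* went the other way, at low medians of 2.75 against 2.07, 0.371 against 0.332 and 0.210 against 0.158 CPM. *Mcm2* also did at 12 hpa, at 0.319 against 0.243 CPM. The epidermal lineage sum was lower after *yki(RNAi)* at 12 hpa, at 2237 to 2499 against 1819 to 1898 CPM. At 24 hpa it was 1497 to 1643 against 1408 to 1424 CPM. Some markers of this list went the other way at both times. *Prog-1b* had medians of 295 against 347 CPM at 12 hpa and 296 against 420 CPM at 24 hpa. *Prog-1g* had 139 against 164 CPM and 122 against 143 CPM. The stem cell and epidermal lineage sums overlapped in the remaining states. Over all states the ranges in *control(RNAi)* and *yki(RNAi)* were 9.66 to 15.4 and 14.5 to 19.8 CPM for 3 neuronal markers, and 729 to 824 and 921 to 1056 CPM for 3 gut markers, while the eye marker *ovo* stayed at or below 0.454 CPM. Within each state the neuronal and gut sums were higher after *yki(RNAi)* without overlap. *COE* made up nearly all of the neuronal sum, where *PAX6-2* and *cintillo* stayed at or below 1.41 CPM, and *porcnA* most of the gut sum. In the gut list *NKX2.2* went the other way, with medians of 152 against 135 CPM at 6 hpa and 136 against 121 CPM at 12 hpa. So did *porcn-B* in intact animals, at 15.1 against 13.4 CPM. *Merlin*, the other Hippo pathway gene that a name identified, had group medians of 50.3 to 63.0 CPM. The 14 genes that the curated wound-induced list places in muscle summed to 339.7 to 623 and 434 to 631 CPM, and 1 of them, *inhibin-1*, is a member. Their sum was higher after *yki(RNAi)* in intact animals, at 339.7 to 404 against 434 to 447 CPM. It was lower at 12 hpa, at 586 to 623 against 529 to 574 CPM, and overlapped at 6 and 24 hpa. Single muscle genes went both ways. At 12 hpa SmedASXL_018147 and SmedASXL_009491 had lower medians after *yki(RNAi)*, at 111 against 87.0 and 95.6 against 70.6 CPM. SmedASXL_014286 and SmedASXL_005092 had higher ones, at 104 against 110 and 58.9 against 62.4 CPM. In intact animals SmedASXL_009408 was lower, at 9.07 against 5.83 CPM. The sum includes *inhibin-1*, which was chosen for its lower level. The 5 that the list places in the epidermis had a lower sum after *yki(RNAi)* in 3 states. The sum was 84.2 to 134 against 48.3 to 75.9 CPM in intact animals, 188 to 252 against 105 to 128 CPM at 6 hpa and 203 to 236 against 138 to 156 CPM at 12 hpa, and overlapped at 24 hpa, at 169 to 979.5 against 449.5 to 1253 CPM. Among these 5, SmedASXL_005346 went the other way, with a higher median after *yki(RNAi)* in each state, for instance 44.9 against 35.3 CPM at 12 hpa. None of the other markers is a member, and the part of these cell types in the members' levels was not tested. No annotation of SmedASXL numbers was used here, so all but 2 members are known only by number and no sequence is shown.

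**Figure D1:**
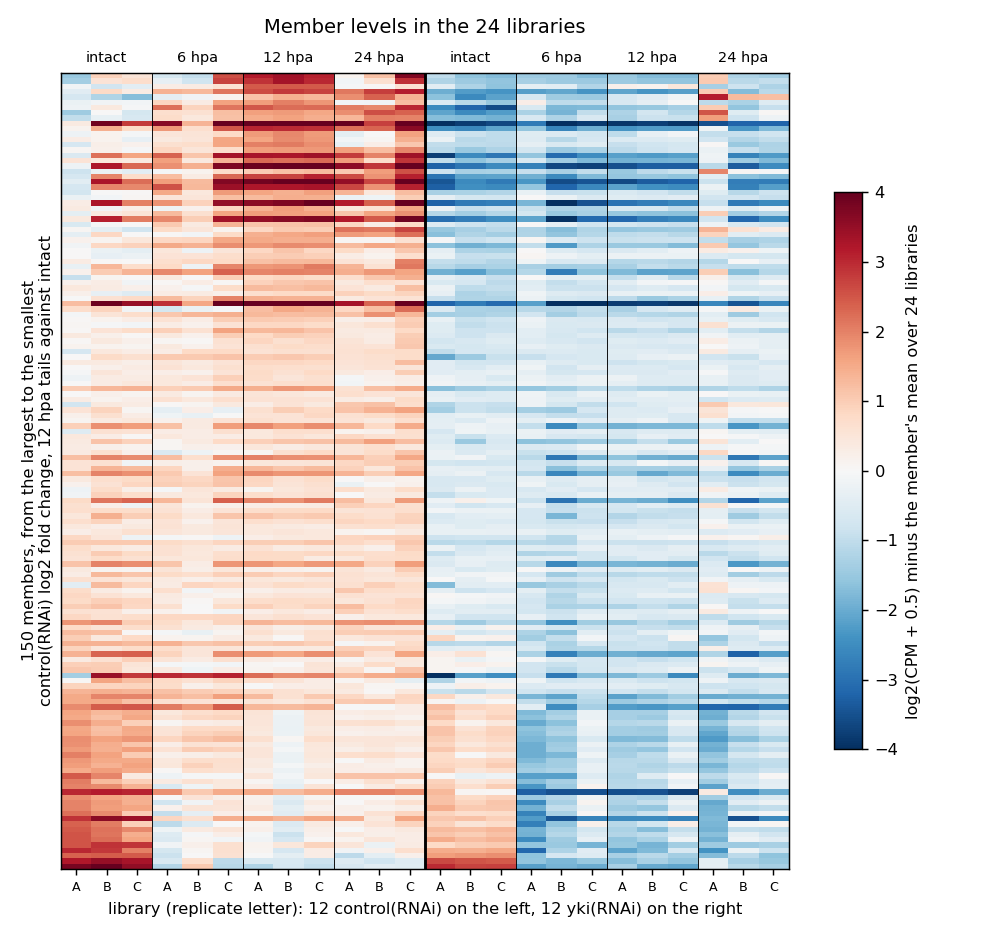
Heat map of the 150 members (rows) in the 24 libraries (columns, 12 *control(RNAi)* left of the heavy line and 12 *yki(RNAi)* right of it). Colour gives log2(CPM + 0.5) minus the member's mean over all libraries, cut at 4 and -4, and rows run from the largest to the smallest *control(RNAi)* change between 12 hpa tails and intact animals (3.15 to -5.02). In *control(RNAi)*, members at the top were higher in tails at 12 hpa than in intact animals, and members at the bottom were lower.

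The sizes of the differences that chose the members covered a wide range. The median over the 150 members of the *control(RNAi)* minus *yki(RNAi)* difference was 1.08 on the log2 scale in intact animals, 1.38 at 6 hpa, 1.62 at 12 hpa and 1.30 at 24 hpa, while the medians over all 13156 rows lay between -0.09 and -0.04. The smallest of the 4 differences had a median of 0.92, reached at least 1 in 62 members, at least 2 in 25 and at least 3 in 10. It fell in intact animals for 84 members, and the largest of the 4 was at 12 hpa for 86 members. All 3 *yki(RNAi)* libraries lay under all 3 *control(RNAi)* libraries for 135 members in intact animals, 142 at 6 hpa, 141 at 12 hpa and 134 at 24 hpa, where 11.1%, 13.7%, 19.6% and 11.7% of all rows that reached the level minimum did so. In all 4 states this held for 116 members and for 3.15% of all such rows. Each of the 12 *yki(RNAi)* libraries lay under each of the 12 *control(RNAi)* libraries for 55 members and for 0.813% of all such rows.

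At the edge of the choice, SmedASXL_009671 and SmedASXL_008577 were the last members, with smallest differences of 0.5847 and 0.5798. SmedASXL_018636 and SmedASXL_018650 were the first rows left out, with 0.5780 and 0.5778. These rows were nearly alike on the measure used, and SmedASXL_008577 was the member whose groups stood apart in the fewest states, in 1 of 4.

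SmedASXL_006360 led the members, with a smallest difference of 6.60. In *control(RNAi)* its level was 92.0, 1054 and 503.5 CPM in intact replicates A, B and C, 894, 185 and 2307 CPM at 6 hpa, 2318, 2378 and 2740.1 CPM at 12 hpa, and 1286, 484 and 2225 CPM at 24 hpa. In *yki(RNAi)* it was 3.36, 4.70 and 5.35 CPM in intact animals, 9.60, 3.18 and 4.56 CPM at 6 hpa, 4.37, 4.81 and 4.30 CPM at 12 hpa, and 5.88, 7.32 and 7.40 CPM at 24 hpa. The *control(RNAi)* libraries thus spanned more than an order of magnitude within the intact and 6 hpa groups, whereas every *yki(RNAi)* library was under 10 CPM. SmedASXL_004241, second in order, followed the same pattern, with 102 to 863 CPM in *control(RNAi)* and 1.99 to 9.25 CPM in *yki(RNAi)*.

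Among the 6 leading members, 3 carry adjacent numbers, SmedASXL_016645, SmedASXL_016647 and SmedASXL_016646. SmedASXL_016647 measured 73.8, 580.2 and 243 CPM in *control(RNAi)* intact animals and 736, 802 and 968 CPM at 12 hpa, against 5.94, 7.96 and 8.54 CPM and 7.36, 8.41 and 9.52 CPM in *yki(RNAi)*. SmedASXL_016645 and SmedASXL_016646 had smallest differences of 5.20 and 4.82 on the log2 scale. Of the 150 members, 21 fell into 9 such runs of adjacent numbers, and how reads that match several transcripts were assigned is not given in the sources used here, so the members of a run may share reads. SmedASXL_074705 (smallest difference 5.06) resembled these 3 members, at 7.98, 108 and 52.2 CPM in *control(RNAi)* intact replicates A, B and C and 0.547, 1.45 and 1.08 CPM in *yki(RNAi)*.

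SmedASXL_009670 and SmedASXL_004244 kept a measurable level after *yki(RNAi)*. SmedASXL_009670 lay between 203 and 3139.8 CPM in *control(RNAi)* and between 21.6 and 99.9 CPM in 11 of the 12 *yki(RNAi)* libraries, with 264 CPM in the remaining one, 24 hpa replicate A. SmedASXL_004244 lay between 62.4 and 1075 CPM in *control(RNAi)*, and its highest *yki(RNAi)* value, 83.6 CPM, was in that same library. SmedASXL_012043 was at 12.4 to 143 CPM in *control(RNAi)* and at 1.44 to 3.49 CPM in *yki(RNAi)*, again apart from 24 hpa replicate A, which was higher.

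Names were given for 2 members among 97 genes curated earlier as wound-induced in planarians. SmedASXL_018870 is listed there as the best match to the cytochrome P450 CYP2J2, which in mammals oxidises fatty acids such as arachidonic acid. Its level was 3.27, 104 and 67.8 CPM in *control(RNAi)* intact replicates A, B and C, then 77.1, 71.4 and 80.4 CPM at 6 hpa, 44.6, 35.0 and 36.5 CPM at 12 hpa, and 22.0, 26.6 and 27.0 CPM at 24 hpa. In *yki(RNAi)* the 12 libraries held 0.0781 to 6.22 CPM. The *control(RNAi)* tails fell with time while remaining above every *yki(RNAi)* library, and intact replicate A stood far below the other 2. SmedASXL_010438 is listed as *inhibin-1*, a ligand of the TGF-β family. It was at 5.53, 9.61 and 8.83 CPM in *control(RNAi)* intact animals and 11.9, 11.8 and 12.7 CPM at 6 hpa, against 0.937, 1.67 and 2.73 CPM and 2.68, 3.28 and 3.39 CPM after *yki(RNAi)*.

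SmedASXL_018001 had the highest CPM of the members in *control(RNAi)*. Its level was 7398, 7720.4 and 7726 CPM in intact animals, 6810.3, 5669 and 6766 CPM at 6 hpa, 7563, 7851 and 7973 CPM at 12 hpa and 6579, 6945 and 7343 CPM at 24 hpa. After *yki(RNAi)* it was 4301, 3949 and 3834 CPM in intact animals, 2871, 2407 and 2538 CPM at 6 hpa, 2757, 2498 and 2355 CPM at 12 hpa and 3593, 2424 and 2766 CPM at 24 hpa. No *yki(RNAi)* library reached the lowest *control(RNAi)* library. CPM does not account for transcript length, so levels of different members are not compared. Over all members, the median CPM over the *control(RNAi)* libraries ranged from 1.31 to 7370.2, with 49 members at 100 or more and 36 under 10.

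**Figure D2:**
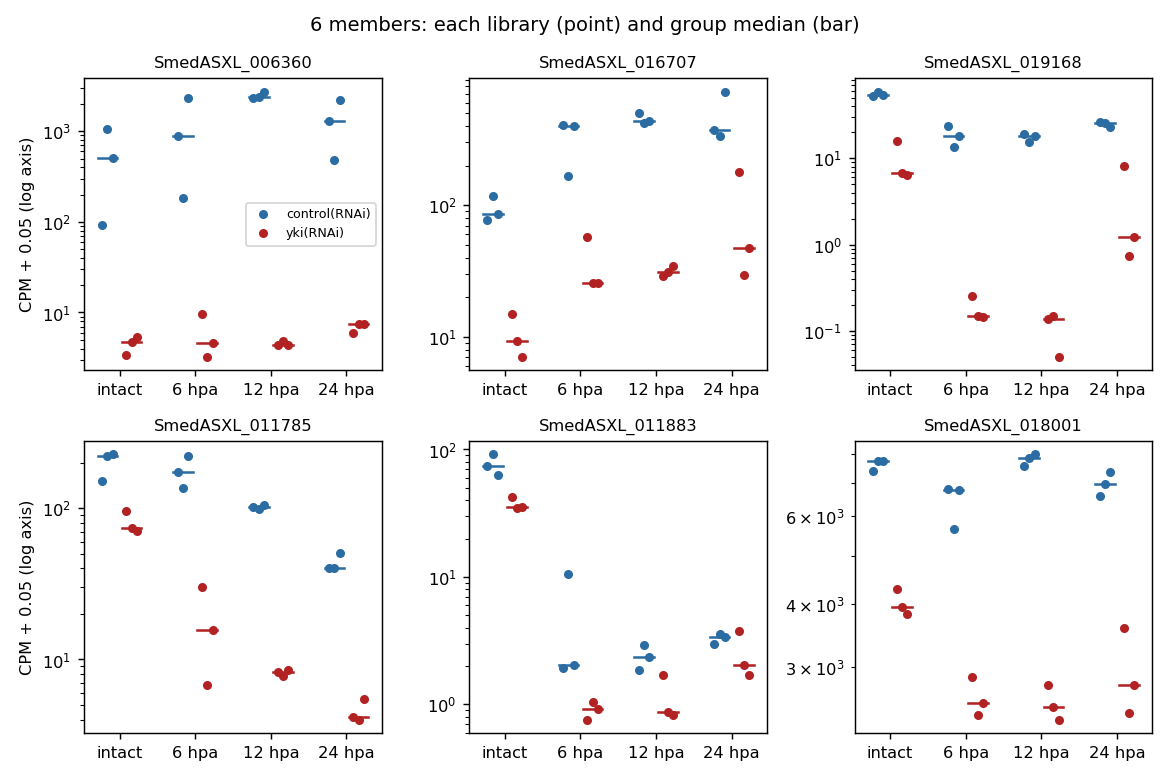
CPM of 6 members (log axis, with 0.05 added so that 0 can be drawn) in each library, by state, with *control(RNAi)* in blue and *yki(RNAi)* in red and bars at the group medians. SmedASXL_006360, SmedASXL_016707 and SmedASXL_018001 stayed apart in every state, SmedASXL_019168 was near 0 in *yki(RNAi)* tails at 6 and 12 hpa, SmedASXL_011785 declined in tails of both conditions, and SmedASXL_011883 dropped in tails of both conditions and overlapped at 24 hpa.

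Other members differed in how even the 4 differences were. SmedASXL_012388, SmedASXL_015599 and SmedASXL_069169 were the most even, with the largest and smallest differences 0.07, 0.09 and 0.12 apart. SmedASXL_012388, for instance, held 4.50 to 6.17 CPM in *control(RNAi)* intact animals and 4.65 to 5.60 CPM at 12 hpa, against 2.03 to 2.97 CPM and 2.24 to 2.66 CPM after *yki(RNAi)*. The least even were SmedASXL_069668, SmedASXL_018913 and SmedASXL_066371, whose differences spread by 4.13, 3.49 and 2.35. SmedASXL_069668 was at 0.0907, 2.66 and 1.88 CPM in *control(RNAi)* intact animals and at 14.3, 16.6 and 13.4 CPM at 12 hpa. In *yki(RNAi)* it was at 0.312, 0.0452 and 0 CPM and at 0.0866, 0 and 0 CPM in those states, so that its difference was 2.13 in intact animals and 4.88 at 12 hpa.

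Whether the members changed after amputation was tested within each RNAi condition, with tails against intact animals in edgeR. Calls required a Benjamini-Hochberg adjusted p below 0.05 and a change of 2-fold or more. After *control(RNAi)*, all 150 members were tested. At 6 hpa 13 rose and 20 fell, where 0.707% and 2.47% of all tested transcripts did. At 12 hpa 39 rose and 30 fell, against 1.3% and 2.79% of all tested transcripts. At 24 hpa 18 rose and 31 fell, against 1.64% and 2.66%. The median log2 fold change over the members was 0.01, 0.14 and 0.15 at the 3 times, beside -0.03, -0.03 and -0.004 over all transcripts tested, so that the members moved in both directions. The 3 comparisons share the intact libraries. At 6 hpa the count of members that rose depended on single libraries, with 20 without *control(RNAi)* 6 hpa replicate B and 6 without replicate C.

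Among the members that rose in *control(RNAi)* tails, SmedASXL_016707 had the largest change at 6 hpa. Its level was 77.5, 117 and 86.5 CPM in intact animals and 409, 167 and 397 CPM at 6 hpa, a log2 fold change of 1.87 (SE 0.29, edgeR adjusted p = 0.00177). At 12 hpa it was 502, 421 and 434 CPM, and at 24 hpa 370.0, 336 and 729 CPM, all above the intact libraries. SmedASXL_014633, next in size at 6 hpa, went from 24.5, 41.0 and 42.8 CPM to 119, 55.8 and 135 CPM (log2 fold change 1.58, SE 0.30).

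The largest increases at 12 hpa were those of SmedASXL_069668 and SmedASXL_018913, each at a log2 fold change of 3.15 (SE 0.34). Both reached the level minimum in tails only, so the choice favoured a rise and no p-value is given. SmedASXL_018913 was at 0.0907, 1.68 and 1.92 CPM in *control(RNAi)* intact animals, at 0.700, 0.362 and 9.19 CPM at 6 hpa, at 10.6, 14.4 and 11.7 CPM at 12 hpa and at 0.893, 1.84 and 10.9 CPM at 24 hpa. Its 3 libraries at 12 hpa were close together, while replicate C stood alone at 6 and 24 hpa. SmedASXL_069668 shared that pattern, with 9.42 CPM in replicate C at 6 hpa and 21.1 CPM in replicate C at 24 hpa.

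At 24 hpa SmedASXL_011684 and SmedASXL_013884 had risen most. SmedASXL_011684 was at 31.0, 21.0 and 14.7 CPM in *control(RNAi)* intact animals and 182, 257 and 129 CPM at 24 hpa, a log2 fold change of 3.16 (SE 0.27, edgeR adjusted p = 1.46e-05). SmedASXL_013884 went from 9.16, 25.9 and 15.6 CPM to 93.6, 153 and 132 CPM (log2 fold change 2.92, SE 0.30). Both had intermediate values at 6 and 12 hpa, with 38.6 to 54.2 CPM and 108 to 133 CPM for SmedASXL_011684.

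SmedASXL_011883 and SmedASXL_070748 had the largest decreases at all 3 times. SmedASXL_011883 was at 73.9, 91.4 and 62.6 CPM in *control(RNAi)* intact animals, and at 1.87, 10.5 and 1.98 CPM at 6 hpa, 1.82, 2.85 and 2.29 CPM at 12 hpa and 2.94, 3.52 and 3.34 CPM at 24 hpa. On the log2 scale it fell by 3.92 at 6 hpa (SE 0.45), and it fell by 5.02 at 12 hpa and fell by 4.496 at 24 hpa. It reached the level minimum in intact animals only, so the choice favoured a fall and no p-value is given. SmedASXL_070748 went from 90.004, 109 and 96.5 CPM to 5.74, 15.1 and 4.29 CPM at 6 hpa and stayed between 4.96 and 6.36 CPM afterwards. Replicate B at 6 hpa was the highest tail library for both transcripts, and still well under the intact libraries.

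**Figure D3:**
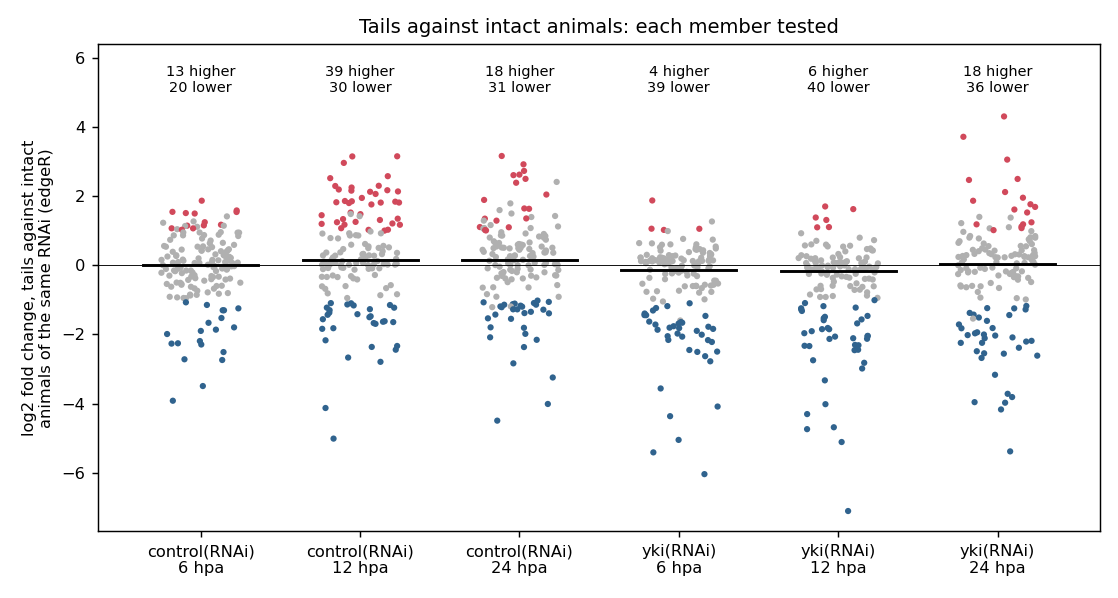
Log2 fold change of each member tested (points) between tails and intact animals of the same RNAi condition, with members called higher in red, called lower in blue and not called in grey, and the median of the members as a black bar. At 12 hpa 39 members were higher and 30 lower after *control(RNAi)*, and 6 higher and 40 lower after *yki(RNAi)*.

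In *yki(RNAi)*, 145 members were tested at 6 and 12 hpa and 144 at 24 hpa. The rest, including SmedASXL_069668, SmedASXL_018913, SmedASXL_066371, SmedASXL_016342 and SmedASXL_016425, had too few counts to enter the fit at 1 or more times. At 6 hpa 4 members rose and 39 fell, where 0.484% and 2.31% of all tested transcripts did. At 12 hpa 6 rose and 40 fell, against 3.23% and 2.95%. At 24 hpa 18 rose and 36 fell, against 6.18% and 3.47%. The medians over the members were -0.13, -0.18 and 0.03 on the log2 scale, beside -0.001, 0.006 and 0.004 over all transcripts tested. The 4 members that rose at 6 hpa became 2 without *yki(RNAi)* intact replicate B, 6 hpa replicate A or 6 hpa replicate C, and the 18 that rose at 24 hpa became 10 without intact replicate B or 24 hpa replicate A.

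Among members called, SmedASXL_016707 and SmedASXL_013884 showed the largest increases in *yki(RNAi)* tails at 6 hpa, and SmedASXL_011684 and SmedASXL_016707 at 12 hpa. SmedASXL_016707 was at 14.8, 9.27 and 6.995 CPM in *yki(RNAi)* intact animals, 57.8, 25.4 and 25.7 CPM at 6 hpa and 29.2, 31.0 and 34.7 CPM at 12 hpa, with log2 fold changes of 1.87 (SE 0.31, edgeR adjusted p = 0.00186) and 1.62 (SE 0.16, edgeR adjusted p = 1.77e-06). These tails, although above their own intact animals, lay below the intact animals of *control(RNAi)*. At 24 hpa they were at 179, 29.4 and 47.0 CPM (log2 fold change 3.06, SE 0.59), and replicate A was then above the intact *control(RNAi)* libraries. SmedASXL_013884 was at 5.55, 3.98 and 5.04 CPM in *yki(RNAi)* intact animals and 10.2, 6.71 and 12.5 CPM at 6 hpa, and its call at 6 hpa was lost without *yki(RNAi)* intact replicate B (log2 fold change 0.91) or 6 hpa replicate C (0.83).

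At 24 hpa in *yki(RNAi)*, SmedASXL_011684 and SmedASXL_013884 again had the largest increases, and replicate A stood apart for both. SmedASXL_011684 was at 15.5, 7.96 and 10.7 CPM in *yki(RNAi)* intact animals and 438.2, 119 and 113 CPM at 24 hpa, a log2 fold change of 4.30 (SE 0.52, edgeR adjusted p = 1.31e-04). SmedASXL_013884 reached 148, 18.1 and 26.1 CPM (log2 fold change 3.72, SE 0.73). Replicate A at 24 hpa was above all 3 *control(RNAi)* libraries for SmedASXL_011684, and replicates B and C were below them.

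SmedASXL_019168 had the largest decrease in *yki(RNAi)* tails. It was at 15.9, 6.65 and 6.43 CPM in *yki(RNAi)* intact animals, which were 204, 147 and 125 reads, and at 4, 2 and 2 reads at 6 hpa and 2, 2 and 0 reads at 12 hpa. The pooled level was 66.3-fold lower at 6 hpa (95% exact interval 33.4 to 154, counting error only) and 141-fold lower at 12 hpa (54.7 to 519). At 24 hpa it was 8.13, 0.685 and 1.19 CPM, again with replicate A apart. The *control(RNAi)* tails held 13.5 to 26.0 CPM at all 3 times, below the 53.1, 59.1 and 54.4 CPM of their intact animals.

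SmedASXL_066175 and SmedASXL_011785 had fallen most at 24 hpa in *yki(RNAi)*. SmedASXL_066175 went from 62, 115 and 107 reads in *yki(RNAi)* intact animals to 0, 6 and 1 reads, a pooled level 43.2-fold lower (95% exact interval 20.7 to 109). SmedASXL_011785 was at 95.4, 74.4 and 70.3 CPM in *yki(RNAi)* intact animals, 30.2, 6.76 and 15.7 CPM at 6 hpa, 8.18, 7.68 and 8.50 CPM at 12 hpa and 4.09, 3.95 and 5.40 CPM at 24 hpa, where its log2 fold change was -4.17 (SE 0.14, edgeR adjusted p = 2.60e-08). In *control(RNAi)* the same transcript was at 151, 220.5 and 227 CPM in intact animals, 174, 136 and 221 CPM at 6 hpa, 102, 98.1 and 105 CPM at 12 hpa and 40.1, 40.5 and 50.3 CPM at 24 hpa. At 6 hpa its *control(RNAi)* tails overlapped their intact animals, and its *yki(RNAi)* tails did not. SmedASXL_011883 and SmedASXL_070748 dropped in *yki(RNAi)* too, from 34.7 to 42.4 CPM to at most 3.70 CPM and from 53.6 to 60.9 CPM to at most 6.95 CPM.

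The calls of the 2 conditions, which share no library, were set side by side. Of the 20 members that fell at 6 hpa in *control(RNAi)*, 19 (95%) also fell in *yki(RNAi)*, which is 48.7% of the 39 that fell there. At 12 hpa 29 members fell in both, 96.7% of the *control(RNAi)* list and 72.5% of the *yki(RNAi)* list, and at 24 hpa 28 did, 90.3% and 77.8%. Of the 39 members that rose at 12 hpa in *control(RNAi)*, 5 (12.8%) were called higher in *yki(RNAi)*, and 4 of the 39 were not tested there. At 6 hpa 4 of 13 rose in both conditions, and at 24 hpa 9 of 18. Of all transcripts that fell in *control(RNAi)*, 64.1%, 68.8% and 73.9% also fell in *yki(RNAi)* at 6, 12 and 24 hpa, which is 70.9%, 63.4% and 56.0% of those that fell there. Of all that rose in *control(RNAi)*, 32.1%, 21.6% and 65.5% also rose in *yki(RNAi)*. The difference between the responses of the 2 conditions combines the contrasts that chose the members, and so was not tested.

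**Figure D4:**
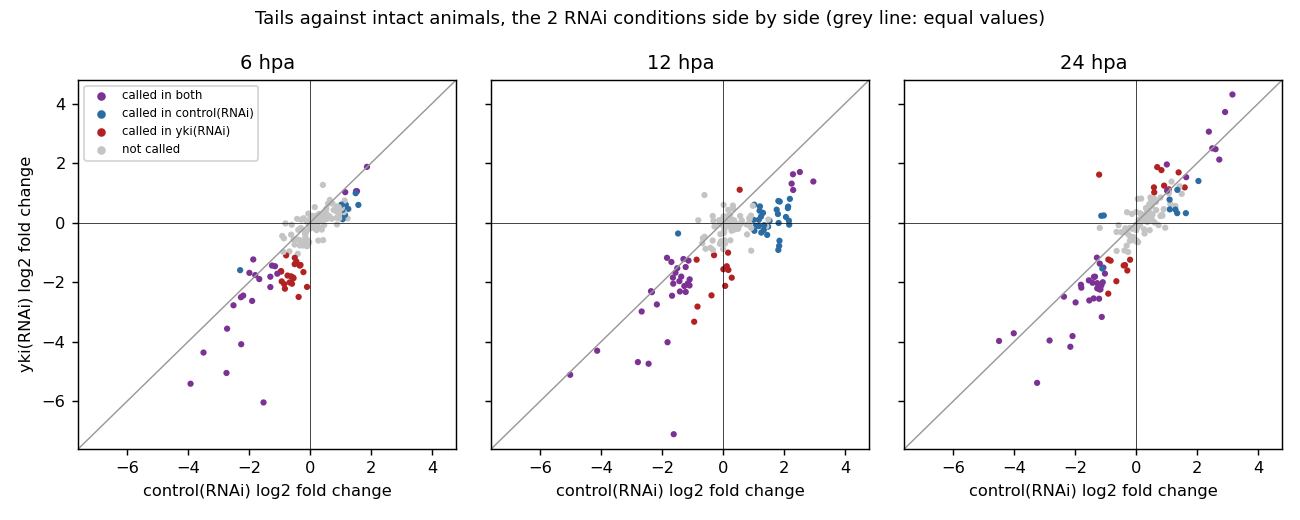
Log2 fold change of each member between tails and intact animals in *control(RNAi)* (horizontal) and in *yki(RNAi)* (vertical) at 6, 12 and 24 hpa, coloured by the condition in which it was called, with a grey line at equal values. At 12 hpa the members called only in *control(RNAi)* lie mostly at positive *control(RNAi)* values, and 5 members were called higher in both conditions.

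Within tails, 24 hpa was compared with 6 hpa. After *control(RNAi)* 14 members rose and 5 fell between these times, where 3.98% and 1.38% of all tested transcripts did. Replicate letters paired the libraries of these times in both conditions. With the replicate letter as a block 22 members rose, where 1322 of 27449 transcripts did. The count that rose was 25 without *control(RNAi)* 6 hpa replicate C, and the count that fell was 8 without 6 hpa replicate B, 3 without 24 hpa replicate A and 10 without 24 hpa replicate C. After *yki(RNAi)* 15 members rose and 1 fell, against 4.42% and 1.1%. Under the block 22 rose, where 1283 of 27734 transcripts did. Without *yki(RNAi)* 6 hpa replicate B 9 rose, and 2 fell without 6 hpa replicate C or 24 hpa replicate A.

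The fold changes, SE and p-values of single members that follow come from the fit without the block, which ignores this pairing. SmedASXL_011684 was among the largest increases between these times in both conditions, with log2 fold changes of 1.99 (SE 0.22) after *control(RNAi)* and 3.28 (SE 0.51) after *yki(RNAi)*. SmedASXL_013873 rose in *control(RNAi)* tails from 7.98, 11.1 and 13.1 CPM to 24.1, 31.8 and 65.5 CPM (log2 fold change 1.87, SE 0.33, edgeR adjusted p = 0.00388), and its intact animals, at 22.4, 25.5 and 12.2 CPM, lay in between. SmedASXL_019168 had the largest fitted increase in *yki(RNAi)*, 4.51 (SE 1.14, edgeR adjusted p = 0.0168), from 8 reads in all at 6 hpa. That call was lost without any 1 of the 6 hpa libraries (adjusted p = 0.0522 to 0.0593). SmedASXL_011785 fell in both conditions, by 2.07 on the log2 scale (SE 0.17, edgeR adjusted p = 1.19e-04) in *control(RNAi)* and by 2.02 (SE 0.44, edgeR adjusted p = 0.00788) in *yki(RNAi)*, and SmedASXL_018870, the CYP2J2-like transcript, fell by 1.65 (SE 0.09, edgeR adjusted p = 9.87e-06) in *control(RNAi)*.

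In all, 32 members (21.3%) also stand in a list of transcripts induced after amputation. From that list the 430 entries labelled by SmedASXL number were used. It was drawn from these same *control(RNAi)* libraries, so the direction of the 32 members there is not independent evidence. Of all rows that reached the level minimum, 2.18% are in the list. Here 11 of them rose at 6 hpa, 31 at 12 hpa and 16 at 24 hpa in *control(RNAi)*, and 4 of 29 tested, 4 of 29 and 10 of 28 did in *yki(RNAi)*. Of the other entries of the list, 37.5%, 50.4% and 65.9% of those tested rose in *control(RNAi)* at these times, and 18.1%, 28% and 50.8% in *yki(RNAi)*. They include SmedASXL_006360, SmedASXL_009670, SmedASXL_012043, SmedASXL_016707, SmedASXL_011684, SmedASXL_013884, SmedASXL_014633, SmedASXL_018913, SmedASXL_066371 and SmedASXL_008577, described above. The others are SmedASXL_000375, SmedASXL_002380, SmedASXL_009683, SmedASXL_013043, SmedASXL_013239, SmedASXL_013885, SmedASXL_014634, SmedASXL_015000, SmedASXL_015227, SmedASXL_015868, SmedASXL_016342, SmedASXL_016425, SmedASXL_018756, SmedASXL_018815, SmedASXL_018843, SmedASXL_019751, SmedASXL_034206, SmedASXL_050710, SmedASXL_061279, SmedASXL_069955, SmedASXL_076758 and SmedASXL_077133. At 12 hpa in *control(RNAi)* the log2 fold changes of the 32 lay between 0.98 and 3.15.

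The members varied more between libraries of a group than other transcripts did. Because the choice used medians of 3 libraries, it could favour rows with a wide spread, so this comparison is a description only. The range of log2(CPM + 0.5) over the 3 libraries of a group had a median over the members of 0.59 in *control(RNAi)* intact animals, 0.53 at 6 hpa, 0.22 at 12 hpa and 0.45 at 24 hpa, beside 0.27, 0.19, 0.13 and 0.19 over the 13006 other rows. In *yki(RNAi)* the medians were 0.39, 0.59, 0.25 and 0.76, beside 0.17, 0.19, 0.15 and 0.17. Rows of like level, which were matched for level and not for the choice, gave the same order. Among rows with a median of 6.80 to 65.2 CPM over all libraries, the 74 members had median ranges of 0.21 to 0.78 in the 8 groups and the 8271 other rows 0.13 to 0.27. The groups at 12 hpa were the tightest for the members in both conditions.

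Certain libraries were high or low for many members at once. *Control(RNAi)* 6 hpa replicate C was the highest of its group for 103 of 150 members (68.7%) and for 32.7% of other rows, *control(RNAi)* 24 hpa replicate C for 99 (66%) and 34.8%, and *yki(RNAi)* 24 hpa replicate A for 100 (66.7%) and 29.7%. *Yki(RNAi)* 6 hpa replicate A was highest for 87 members (58%, beside 29.4% of other rows), and 6 hpa replicate B was lowest for 81 (54% and 25.9%). *Yki(RNAi)* intact replicate A was highest for 87 members too (58% and 40.8%). *Control(RNAi)* 6 hpa replicate B was lowest for 84 members (56% and 31.0%), and intact replicate A for 78 (52% and 23.6%). Over the 12 *control(RNAi)* libraries, SmedASXL_011883, SmedASXL_069668 and SmedASXL_074705 had the widest range, at 5.31, 5.19 and 4.91 on the log2 scale. SmedASXL_009099, SmedASXL_013637 and SmedASXL_010887 had the narrowest, at 0.39, 0.42 and 0.43. SmedASXL_009099 held 27.9 to 36.7 CPM in every *control(RNAi)* library and 13.7 to 25.7 CPM in every *yki(RNAi)* library. The median range over the 12 *control(RNAi)* libraries was 1.76 for the members and 0.60 for other rows.

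Deviations from the group mean were shared among members. Over the 24 libraries, 51.9% of the within-group variation of the members lay along 1 axis, and 26.6% of that of the other rows. The deviations of 8 members correlated with those of SmedASXL_006360 at an r above 0.8 (24 libraries, the same libraries and depth for all members, a description). They were SmedASXL_004241, SmedASXL_016645, SmedASXL_016646, SmedASXL_016647, SmedASXL_074705, SmedASXL_078930, SmedASXL_003640 and SmedASXL_014633. In these 9 members *control(RNAi)* intact replicate A lay below its group mean by a median of -1.56 on the log2 scale and replicate B above it by 1.26. At 6 hpa replicate B was at -1.06 and replicate C at 1.27, and at 24 hpa they were at -0.80 and 0.79. At 12 hpa the 3 *control(RNAi)* libraries were within 0.21 of their mean. Against intact animals 1, 6 and 1 of the 9 rose at 6, 12 and 24 hpa in *control(RNAi)*, with median log2 fold changes over the 9 of 0.43, 1.76 and 1.29. In *yki(RNAi)* these medians were -0.08, -0.07 and 0.97. The shares of all transcripts that rose are those given above for each comparison.

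A second set of 25 members varied with SmedASXL_012035, with every r at 0.81 or more, and both leads and sets were chosen after their values were seen. SmedASXL_012035 was at 5089.8, 3852 and 3086 CPM in *control(RNAi)* intact animals, 1701, 2135 and 2070.4 CPM at 6 hpa, 1816, 1225 and 1956 CPM at 12 hpa and 1855, 1999 and 1875 CPM at 24 hpa. In *yki(RNAi)* it was at 2576, 1896 and 2188 CPM in intact animals, 369, 531 and 1199.7 CPM at 6 hpa, 604, 669 and 1152 CPM at 12 hpa and 385, 754 and 937 CPM at 24 hpa. The *yki(RNAi)* tails were unequal, with replicate A lowest and replicate C highest at every time. The set also held SmedASXL_009671, at 3995, 3136 and 3794 CPM in *control(RNAi)* intact animals and 2943, 2238 and 2529.6 CPM in *yki(RNAi)*. Of these 26 members 14, 24 and 21 fell at 6, 12 and 24 hpa in *control(RNAi)*, and 24, 23 and 24 fell in *yki(RNAi)*. Of all transcripts tested, 2.47%, 2.79% and 2.66% fell in *control(RNAi)*, and 2.31%, 2.95% and 3.47% in *yki(RNAi)*. Outside the members, 69 transcripts had at least 10 CPM in intact animals and a median over tails under 10% of that. Their summed level was 5466 to 7619 CPM in intact animals and 53.7 to 954 CPM in tails. In *yki(RNAi)* replicates A, B and C they summed to 100.4, 604 and 287 CPM at 6 hpa, 79.9, 80.9 and 235 CPM at 12 hpa and 53.7, 704 and 136 CPM at 24 hpa. Replicate A was lowest at each time, as in SmedASXL_012035, but the highest was replicate B at 6 and 24 hpa, where SmedASXL_012035 was highest in replicate C. Whether the members' levels share a source with those of these 69 transcripts was not tested. Deviations of the 2 leads had an r of -0.22 with each other.

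**Figure D5:**
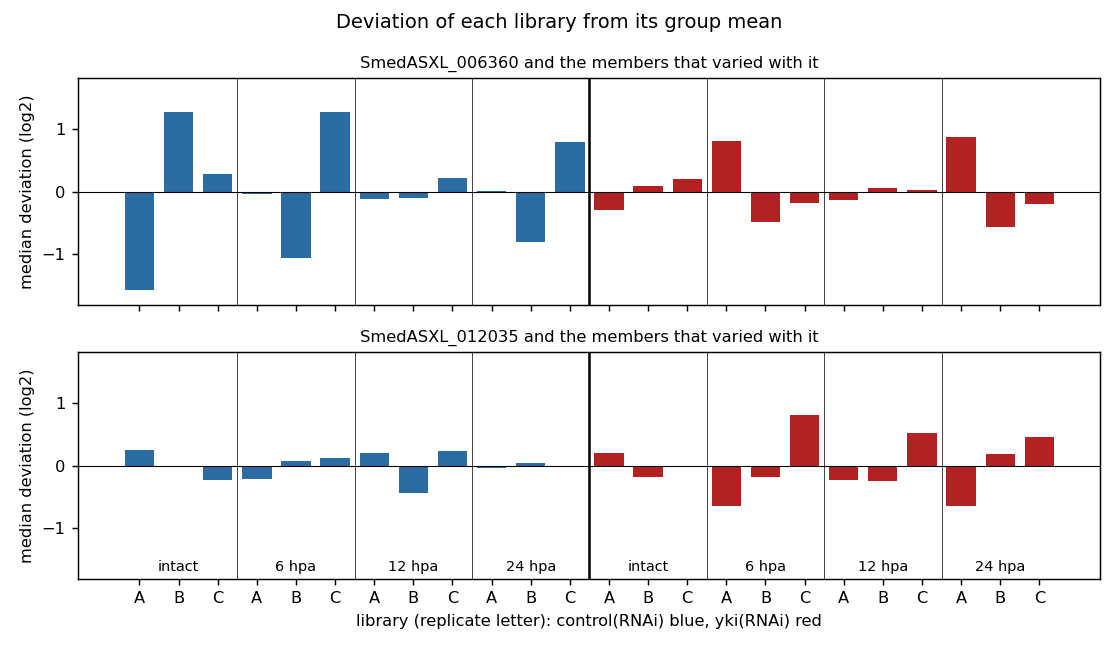
Median deviation from the group mean, in log2(CPM + 0.5), of SmedASXL_006360 and 8 members that varied with it (top) and of SmedASXL_012035 and 25 members that varied with it (bottom), for each library, *control(RNAi)* in blue and *yki(RNAi)* in red. The top set varied most in *control(RNAi)* intact, 6 hpa and 24 hpa libraries (-1.56 to 1.27), and the bottom set most in *yki(RNAi)* tails (-0.64 to 0.80).

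The members whose level was most like that of *yki* over the 12 *control(RNAi)* libraries were SmedASXL_013874, SmedASXL_019149 and SmedASXL_002063, with an r of 0.94, 0.90 and 0.86 on the log2(CPM + 0.5) scale. These values are a description over libraries of 4 states. SmedASXL_013874 was at 14.9, 19.1 and 10.6 CPM in *control(RNAi)* intact animals, 7.75, 12.1 and 7.96 CPM at 6 hpa, 15.8, 20.3 and 17.9 CPM at 12 hpa and 22.5, 27.0 and 31.7 CPM at 24 hpa. The *yki* transcript likewise had its lowest *control(RNAi)* median, 83.4 CPM, at 6 hpa and its highest, 116 CPM, at 24 hpa. In *yki(RNAi)* the 12 libraries of SmedASXL_013874 held 3.38 to 14.5 CPM.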

How the data were processed

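Poly(A) RNA of 24 libraries in 8 groups of 3 was sequenced. Per the submitters' processing notes, bcl2fastq 1.8.3, Bowtie2 2.2.4 and DESeq2 were used, reads were aligned to the SmedASXL transcriptome, and the counting tool is not given in the sources used here. The authors deposited raw counts per transcript and sequencing lane, with no normalization. Lanes were summed, except that lane 2 of *yki(RNAi)* intact replicate A, in which 22 rows are damaged, was left out. The row labelled with an asterisk, which names no transcript, held 6.31% to 7.49% of the counts and stayed out of library sizes and tests. The authors' tables of comparisons hold fold changes and p-values and were not used.

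Wound and time comparisons used edgeR 4.0.16 quasi-likelihood tests, 1 fit for each pair of groups, with TMM normalization, filterByExpr (minimum count 10, minimum total 15) and Benjamini-Hochberg adjustment over all transcripts tested. SE is the log2 fold change divided by the square root of F. DESeq2 1.42.0, other normalization, no filter, a block, 1 fit of all libraries and leaving out each library were alternatives. On simulated data the calls were checked against known changes. Replicate letters pair 24 with 6 hpa libraries, since same-lettered libraries deviated together in every pair (r 0.12 to 0.40 in *control(RNAi)*, 0.12 to 0.29 in *yki(RNAi)*).

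Members named are the 10 with the largest smallest difference, the 2 largest increases and decreases of each comparison among those without overlap, those in lists of the study, those at the edge, the 3 most abundant, the 3 steadiest and most variable, the 3 most and least even, and the 3 most like *yki*. Members and lists were chosen with earlier results of these data known. Precision is limited by 3 libraries per group and 11021767 to 23601139 counted reads each.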

Additional observations from a re-analysis of the deposited data

Results flagged for a closer look

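At 12 hpa, 5 members had all 3 *control(RNAi)* tail libraries above all *control(RNAi)* intact libraries and all 3 *yki(RNAi)* tail libraries below all *yki(RNAi)* intact libraries, as did 0.877% of the other rows. They were SmedASXL_004241, SmedASXL_016645, SmedASXL_015868, SmedASXL_009683 and SmedASXL_012802. None of these was called lower in *yki(RNAi)*, where each decrease was under 2-fold (log2 fold change -0.943 to -0.396). In *control(RNAi)*, SmedASXL_004241 (edgeR adjusted p = 0.220) and SmedASXL_012802 (log2 fold change 0.786) were not called higher. SmedASXL_015868, which was named after its values were seen, was at 42.1, 38.8 and 36.7 CPM in *control(RNAi)* intact animals and 139, 135 and 139.6 CPM at 12 hpa, and at 14.3, 9.09 and 11.1 CPM and 7.36, 7.63 and 7.78 CPM in *yki(RNAi)*. In the reverse direction there was 1 member of 150, SmedASXL_019755, beside 1.82% of the other rows. It was at 11.7, 11.6 and 10.6 CPM in *control(RNAi)* intact animals and 8.61, 9.19 and 8.43 CPM at 12 hpa, against 1.64, 1.76 and 1.54 CPM and 1.99, 2.14 and 1.84 CPM in *yki(RNAi)*, and neither change passed the test (edgeR adjusted p = 0.0546 and 0.442). The difference between the 2 conditions was not tested, since it combines the contrasts that chose the members. A rise in *control(RNAi)* with a fall in *yki(RNAi)* widens the difference used for that choice, and the reverse narrows it. Neither count is therefore read as a result about the members.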

How the results depend on the processing

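The choice of members kept 143 of 150 with TMM library sizes or a pseudocount of 1, 149 with both lanes of *yki(RNAi)* intact replicate A, 131 with a level minimum of 10 CPM, 130 with group means, and 135 to 150 without any 1 library. Across all alternatives, 228 values of the main results stayed within their limits and 33 moved, and 335 values of single members kept their call and 6 lost it. With a lower fold-change minimum, which the study used elsewhere, counts of members higher in tails than in intact animals were 28 at 6 hpa and 31 at 24 hpa in *control(RNAi)*, and 8, 16 and 33 at 6, 12 and 24 hpa in *yki(RNAi)*, and 35 were lower at 6 hpa in *control(RNAi)*, where 4.14%, 5.58%, 2.54%, 10.9%, 15.4% and 4.47% of all transcripts were. Between 24 and 6 hpa, 31 were higher and 22 lower in *control(RNAi)*, and 27 and 6 in *yki(RNAi)*, against 10.8%, 10.1%, 11.7% and 9.61% of all transcripts. With no filter on low counts, 25 were higher at 6 hpa and 30 at 24 hpa in *control(RNAi)*, and 25 between 24 and 6 hpa in *yki(RNAi)*. In these fits 462 of 80426, 1089 of 80913 and 1908 of 80886 transcripts were higher. One fit of all 24 libraries called 1 member higher at 6 hpa in *yki(RNAi)*, where 149 of 33961 transcripts were, and lost the call of SmedASXL_013884 (edgeR adjusted p = 0.39). The cause of these moves was not tested.

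The replicate block gave 22 in place of 14 members higher in *control(RNAi)* between 24 and 6 hpa, and moved no other count by more than 1.5 times. Between tails and intact animals, same-lettered libraries deviated together weakly or not at all (r -0.04 to 0.16).

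Leaving out 1 library at a time gave 6 to 20 members higher and 19 to 26 lower at 6 hpa in *control(RNAi)*, and 2 to 6 and 10 to 25 higher at 6 and 24 hpa in *yki(RNAi)*. Between 24 and 6 hpa it gave 10 to 25 higher and 3 to 10 lower in *control(RNAi)*, and 9 to 20 higher and 1 to 2 lower in *yki(RNAi)*. Shares of all transcripts are given above only for fits that kept every library of the groups compared. The median difference of the members at 12 hpa was 1.47 to 1.63 in place of 1.62.

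With 3 libraries per group, members with few reads after *yki(RNAi)* could not be tested, and counting intervals cover counting error only. No p-value is given for *yki(RNAi)* against *control(RNAi)*, since those values chose the members.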
